A study of Cucumis sativus with 9 samples.

Results

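The change in leaf transcripts between 3 h and 6 h at 42 °C was examined in cucumber (Cucumis sativus) 'Chinese long' 9930, by comparing the 3 libraries of leaves heated for 6 h (HT6h) with the 3 libraries of leaves heated for 3 h (HT3h). These 6 libraries were chosen by their time label, and they are 6 of the 9 libraries of the series. The other 3 libraries, HT0h, are the leaves collected at the start, and they show whether a gene had already moved by 3 h. They also entered the fit behind the test between 3 h and 6 h, as part of its filter and its estimate of the spread. The 6 heated libraries alone gave 0 higher and 1 lower gene. Outside the WRKY family of transcription factors, 70 genes passed the test between 3 h and 6 h. They were sorted into those that kept rising or falling, those that turned back towards the 0 h level, and those that first moved after 3 h.

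Heat shock factors are a family of DNA-binding proteins, among them activators that switch on genes of molecular chaperones when plants are heated. Among the chaperones, small heat shock proteins (Hsp20) hold unfolding proteins in a soluble state and Hsp70 refolds them with ATP. DnaJ co-chaperones deliver clients to Hsp70, while Hsp90 matures regulatory proteins. This response is known for a fast rise that is damped during longer exposure, since free chaperones restrain the factors that induce them.

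All seedlings were 3 weeks old and had been grown at 25 °C by day and 18 °C by night with 16 h of light and 8 h of dark, and none carried a transgene or a further treatment. Total RNA of whole leaves was sequenced, with 3 biological replicates per time point. Because these are bulk samples, fewer cells of a type and less RNA per cell cannot be told apart. Leaves sampled at the later hours without heat are not part of the design, so the duration of heat and the hour of the day cannot be told apart either. The fragments on genes ranged from 18972139 to 22942239 over the 9 libraries. HT3h_3 and HT6h_3 stood apart from the others in that their 10 most abundant genes took 4.15% and 4.89% of the fragments, against 6.64% to 9.76% elsewhere, and the mean correlation of a heated library with its group was between 0.961 and 0.976. The study itself set aside HT3h_2 and HT6h_2 for poor uniformity within their groups, so results are also given for the remaining 7 libraries.

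Values are FPKM, the fragments per kilobase of gene at a common sequencing depth, so levels of different genes can be compared per length. The test covered 19468 genes whose FPKM averaged at least 0.1 over the libraries. Of these, 34 (0.175%) were higher and 39 (0.2%) were lower at 6 h than at 3 h, 73 (0.375%) in all, at an adjusted p of 0.05 or less and a fold change of 2 or more on the log2(FPKM + 0.1) scale. An adjusted p of 0.05 or less at any fold change was reached by 80 genes (0.411%), and an unadjusted p under 0.05 by 1806 (9.28%). Of the 34 higher genes, 3 belonged to the WRKY family. For comparison, 2114 genes (10.9%) were higher and 1863 (9.57%) lower at 3 h than at 0 h, and 2388 (12.3%) were higher and 1973 (10.1%) lower at 6 h than at 0 h. These comparisons share libraries with that of 6 h and 3 h. In all 73 genes the 3 HT6h libraries lay on one side of the 3 HT3h libraries, as they did in 5.9% of all genes tested for a higher and in 5.61% for a lower level. Among described genes outside the WRKY family with a mean of 1 FPKM or more, the largest rises were those of CsaV3_3G017150, a PAR1 protein, CsaV3_7G002270, a protein kinase with a PAS domain, and CsaV3_6G001040, a UDP-glycosyltransferase, and the largest falls were those of CsaV3_4G009980 and CsaV3_6G046900, both with a B-box, and of CsaV3_6G008360, a Myb-like gene.

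**Figure D1:**
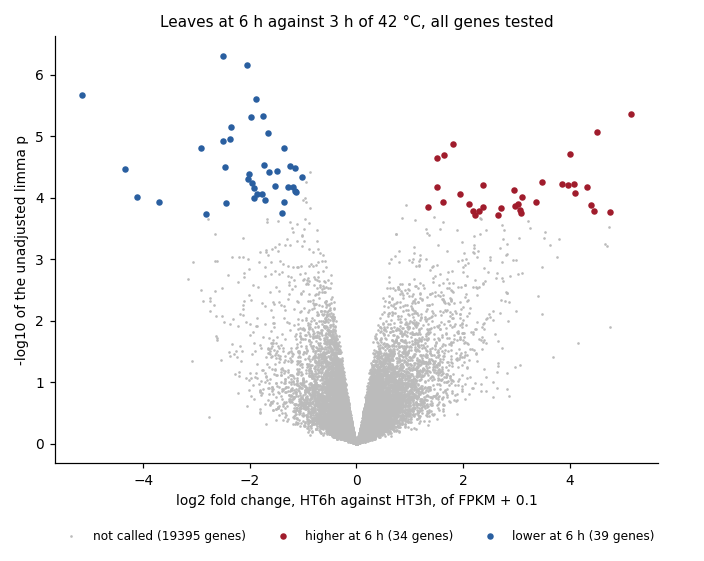
Log2 fold change between HT6h and HT3h (x axis) against -log10 of the unadjusted limma p (y axis), 1 point per gene tested. The 34 genes called higher (red) and the 39 called lower (blue) are few beside the 19468 tested, and they extend to a rise of 5.15 and a fall of -5.14 on the log2 scale.

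The adjusted p of the 73 genes lay between 0.00669 and 0.0462, with 13 genes at 0.02 or less, so that most calls sat close to the threshold. In the 7 libraries that the study kept, 17 genes were higher and 22 lower, and 24 of the 73 genes were among these 39. Without HT3h_3 and HT6h_3, 2 were higher and 16 lower, with 13 of the 73 among them. The unadjusted limma p there was at most 0.00255 for each of the 73. Since the 73 were chosen on data that hold these same libraries, that p gives no separate support. Leaving out HT3h_1 ended 72 of the 73 calls, and leaving out HT6h_1 ended 69. Leaving out HT6h_3 ended 61, HT0h_1 58, HT0h_2 52, HT0h_3 52, HT6h_2 50, HT3h_3 33 and HT3h_2 32. Scaled per counted fragment in place of the authors' scale, which moved the median log2 fold change of all genes from -0.002 to 0.104, 44 genes were higher and 32 lower. The gene with the most stable call was an undescribed gene model at chr1:19544323-19547088, singled out after its values were seen, which was called in 21 of 22 alternative analyses. Its level was 50.6, 57.7 and 49.7 FPKM in HT0h, 17, 11.8 and 12.8 in HT3h and 1.85, 2.61 and 2.63 in HT6h (replicates 1 to 3), and its log2 fold change from 3 h to 6 h was -2.5 ± 0.2 (SE; adjusted p = 0.00669).

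By time course, 15 of the genes had risen by 3 h and fell back, 9 had fallen and fell further, and 11 fell only after 3 h. In the other direction, 10 genes rose further (3 of them WRKY genes), 14 rose late and 8 had fallen by 3 h and recovered. The remaining 6 genes, 2 higher and 4 lower, met none of these definitions. These classes share libraries between contrasts and are given as counts without a test.

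**Figure D2:**
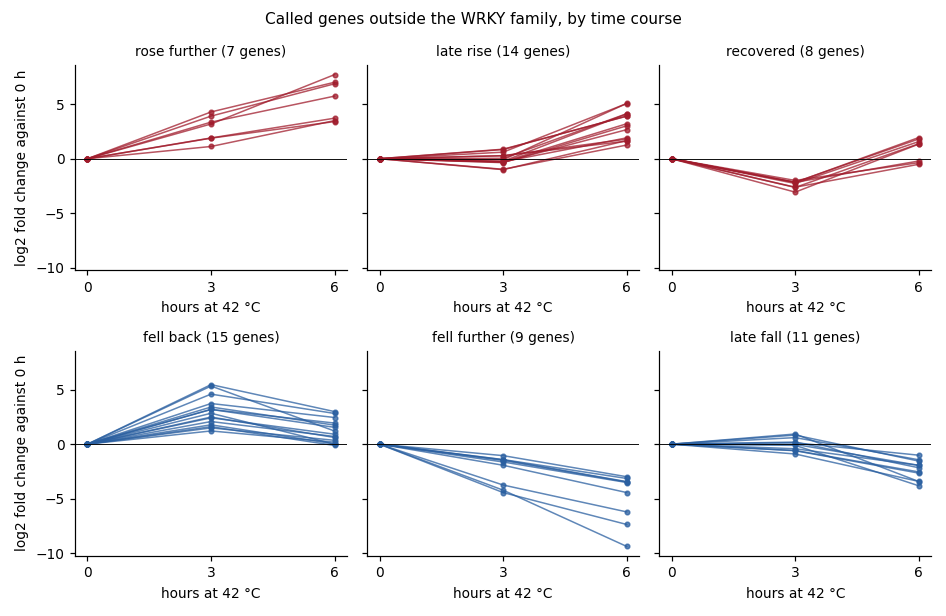
Log2 fold change against 0 h (y axis) at 0, 3 and 6 h at 42 °C (x axis) of the called genes outside the WRKY family, 1 line per gene, in panels by time course. The 15 genes that fell back had lost a median of 66.1% of their log2 rise by 6 h, whereas the 9 that fell further ended between -2.98 and -9.36. Some loss is fixed by how the class that fell back is defined.

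Heat shock genes made up most of the described genes that fell back. Of these 15 genes, 4 were Hsp20 genes, 2 had a DnaJ domain, 1 was an Hsp70 gene and 1 a heat shock factor. The 15 had lost between 34.4% and 108% of their log2 rise by 6 h (median 66.1%), and in 8 of the 15 every HT6h library remained above every HT0h library. Some loss is fixed by the definition of the class, and the rise and the fall share the HT3h libraries. In the 7 libraries 4 of the 15 remained called. Without HT3h_3 and HT6h_3, the libraries that stood apart, none of the 15 remained called by limma, with adjusted p between 0.0741 and 0.169 and log2 fold changes between -3.78 and -1.1. Each of the 15 lost its call in at least 2 of the 9 single omissions, with an adjusted p of up to 0.152.

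The Hsp70 gene CsaV3_7G024760 (chr7:14011638-14016863) had the largest fall of the described genes in this class. It was at 0.373, 0.26 and 0.651 FPKM in HT0h, at 18.6, 26 and 21.8 in HT3h and at 4.38, 2.86 and 4.65 in HT6h. The heated groups did not overlap, and all HT6h libraries were still above all HT0h libraries. Its mean was 51.7 times higher at 3 h than at 0 h and then 5.58 times lower at 6 h than at 3 h, with a log2 fold change of -2.47 ± 0.32 (SE; adjusted p = 0.0284). In the 7 libraries the change was -2.13 (adjusted p = 0.0873), and leaving out any heated library or HT0h_1 also ended the call, with an adjusted p of up to 0.105.

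Among small heat shock proteins, CsaV3_5G030610 (chr5:25114220-25116088) returned to its 0 h level. Its values were 44.6, 42.3 and 54.7 FPKM in HT0h, 187, 133 and 165 in HT3h and 55.7, 45.3 and 42.2 in HT6h, so that the HT6h and HT0h libraries overlapped. Between 3 h and 6 h its log2 fold change was -1.75 ± 0.18 (SE; adjusted p = 0.0134) over 9 libraries and -1.85 (adjusted p = 0.0371) over 7. The call was lost without HT3h_1 or HT6h_1, where the adjusted p reached 0.0687. It overlaps by 1754 bases a gene on the opposite strand, CsaV3_5G030620, which averaged 4.83 FPKM and was not called. A second gene, CsaV3_1G035820 (chr1:21895476-21896585), went from 19.5, 14.8 and 28.8 FPKM to 143, 91.1 and 111 and then to 36.2, 23.5 and 34.5. Its log2 fold change was -1.87 ± 0.28 (SE; adjusted p = 0.0346), with an adjusted p of 0.0719 in the 7 libraries and of up to 0.147 without a single library. Leaving out HT0h_3 or HT3h_2 alone kept that call.

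The latter gene stands in a run of 3 Hsp20 genes on chromosome 1, all called lower at 6 h. CsaV3_1G035810 lies 1457 bases away on the same strand and CsaV3_1G035830 lies 1794 bases away on the other strand. Their means were 2.19 and 2.82 times lower at 6 h than at 3 h, and neither was called in the 7 libraries. How fragments shared between similar genes were counted is not given in the sources used here, so the split between these neighbours is uncertain. Over the whole family, 5 of 27 Hsp20 genes tested were lower and none higher, against 0.2% of all genes tested that were lower. In 12 (44.4%) every HT6h library was below every HT3h library, against 5.61% of all genes tested. The median log2 fold change of the 27 genes was -0.49, against -0.002 over all genes tested. The most abundant member, CsaV3_3G002770, was at 5.61, 3.31 and 5.82 FPKM in HT0h, 274, 202 and 558 in HT3h and 112, 72 and 107 in HT6h. Although its HT3h and HT6h libraries did not overlap, its change of -1.72 did not pass the test (adjusted p = 0.122). Of the 27 members 9 had a fold change above 0, among them CsaV3_6G037900, named after its values were seen, which was at 63.3, 93 and 51.7 FPKM at 3 h and at 78.7, 156 and 68.8 at 6 h (log2 fold change 0.49, adjusted p = 0.761).

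DnaJ proteins present unfolded clients to Hsp70. CsaV3_7G034140 (chr7:21563360-21566596), a DnaJ gene that fell back, was at 16, 13.9 and 15.1 FPKM in HT0h, at 169, 129 and 182 in HT3h and at 42.5, 62.3 and 47.9 in HT6h. Its log2 fold change was -1.65 ± 0.19 (SE; adjusted p = 0.0174), and in the 7 libraries -1.96 (adjusted p = 0.0169). Without HT3h_1, HT6h_1 or HT6h_3 the adjusted p rose to as much as 0.0861. The other pattern was seen in CsaV3_7G029620, which was at 6.08, 7.19 and 7.25 FPKM before heat and at 10.3, 7.35 and 6.27 FPKM at 3 h, and which fell late to 1.18, 1.86 and 1.36 FPKM. The log2 fold change was -2.35 ± 0.26 (SE; adjusted p = 0.0171), with 0.0412 in the 7 libraries and up to 0.0861 without HT3h_1, HT6h_1 or HT6h_3. Of 71 DnaJ genes tested, 3 were lower and none higher, against 0.2% of all genes tested that were lower. The family median was -0.03 and turned positive when scaled per counted fragment and without HT3h_2, and 40 of the 71 members were below 0. The most abundant member, CsaV3_5G035180, was at 1840, 2640 and 1480 FPKM at 3 h and at 1830, 1460 and 1260 at 6 h, with overlapping groups (adjusted p = 0.895).

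Of 19 heat shock factors tested, 2 were lower at 6 h than at 3 h and none higher, against 0.2% of all genes tested that were lower. The first, CsaV3_2G025510 (chr2:17542329-17543717), fell back: it was at 6.42, 6.55 and 7.04 FPKM in HT0h, at 123, 261 and 131 in HT3h and at 48.9, 41.5 and 52.4 in HT6h. Its mean had risen 25.7-fold by 3 h and was still 7.13 times the 0 h mean at 6 h. The log2 fold change between the heated groups was -1.77 ± 0.26 (SE; adjusted p = 0.0346). It was -1.32 in the 7 libraries (adjusted p = 0.0277), and without any one of the libraries other than HT3h_2 and HT3h_3 the adjusted p passed 0.05, to at most 0.127. This gene overlaps by 596 bases an undescribed gene on the opposite strand, CsaV3_2G025490, which was also called lower. Whether the counting used the strand is not given in the sources used here, and reads of the pair cannot be told apart in that stretch.

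The second heat shock factor, CsaV3_7G027860 (chr7:17491759-17493282), fell late and ended below its unheated level. It was at 33.5, 73.3 and 68.1 FPKM in HT0h, at 95.1, 101 and 98.1 in HT3h and at 16.8, 22.2 and 17.8 in HT6h. The log2 fold change was -2.38 ± 0.27 (SE; adjusted p = 0.0191) between 3 h and 6 h and -1.55 (adjusted p = 0.00311) between 0 h and 6 h. Leaving out HT3h_1, HT6h_1 or HT6h_3 ended the call (adjusted p up to 0.1), as did the 7 libraries (adjusted p = 0.0539), while in a fit of the 6 heated libraries alone it was the single gene called (adjusted p = 0.0351). An undescribed gene on the same strand, 358 bases away (CsaV3_7G027870), fell from 229, 221 and 217 to 38.9, 77.4 and 52.9 FPKM. The most abundant factor, CsaV3_5G003160, was at 150, 188 and 126 FPKM at 3 h and at 117, 127 and 89.7 at 6 h (adjusted p = 0.482). Of the 19 factors 8 were higher than at 0 h at either time, against 10.9% of all genes tested at 3 h and 12.3% at 6 h. The median of the family was -0.11, and it became positive, at most 0.01, in the 7 libraries and when scaled per counted fragment.

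**Figure D3:**
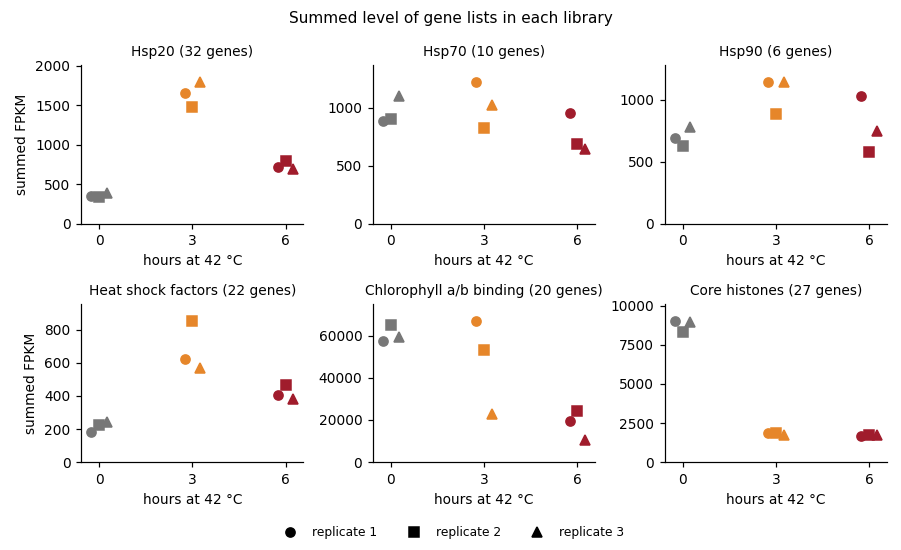
FPKM summed over the listed genes of 6 groups (y axis, from 0) in each library at 0, 3 and 6 h at 42 °C (x axis), with marker shape for the replicate number. The Hsp20 sum was between 1480 and 1790 in the HT3h libraries and between 697 and 797 in the HT6h libraries, while the chlorophyll a/b binding sum of HT3h_3 lay among those of HT6h.

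The summed FPKM of 32 Hsp20 genes was 345, 333 and 384 in HT0h, 1650, 1480 and 1790 in HT3h and 715, 797 and 697 in HT6h. All HT6h libraries thus lay between the other groups, without overlap. For 10 Hsp70 genes the sums were 1220, 827 and 1020 at 3 h and 954, 684 and 645 at 6 h, and these overlapped. The most abundant Hsp70 gene, CsaV3_2G011210, was at 462, 375 and 569 FPKM in HT0h, at 356, 182 and 330 in HT3h and at 250, 120 and 159 in HT6h, and passed neither the test between 0 h and 3 h (adjusted p = 0.138) nor that between 3 h and 6 h (adjusted p = 0.604). The Hsp70 median was -0.74 with 1 of 10 genes called lower, against 0.2% of all genes tested. For Hsp90 none of 6 genes was called and the median was -0.84. In 3 of the 6 all HT6h libraries lay below all HT3h libraries, as in 5.61% of all genes tested. At the most abundant Hsp90 gene, CsaV3_5G018740, the values of 551, 434 and 547 FPKM at 3 h and of 468, 172 and 329 at 6 h overlapped. Chaperonins, the barrel-shaped folding machines, had no called gene among 22 and a median of -0.22. The medians of Hsp20, Hsp70, Hsp90 and chaperonins were negative in each of the 22 alternative analyses, although the members were chosen with results of these data known.

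Of the other described genes that fell back, CsaV3_3G022030 encodes a protein phosphatase 2C, of the enzymes that remove phosphate from serine and threonine. It was at 33.3, 29 and 26.1 FPKM in HT0h, at 68.1, 138 and 75.4 in HT3h and at 24.5, 24 and 33.1 in HT6h (log2 fold change -1.72 ± 0.26, SE; adjusted p = 0.0384). It had thus lost all of its rise, and it was not called in the 7 libraries (adjusted p = 0.0543) nor without any one library except HT3h_2 (adjusted p up to 0.139). Chosen after their values were seen, a Bax1 inhibitor gene (CsaV3_3G049850), of a family that restrains cell death, fell from 103, 151 and 111 to 41.3, 29.9 and 46.2 FPKM, and a TPR and FKBP gene (CsaV3_3G015840), of the peptidyl-prolyl isomerases that work with Hsp90, fell from 119, 118 and 127 to 52.4, 34.2 and 57.4 FPKM. Neither was called in the 7 libraries.

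**Figure D4:**
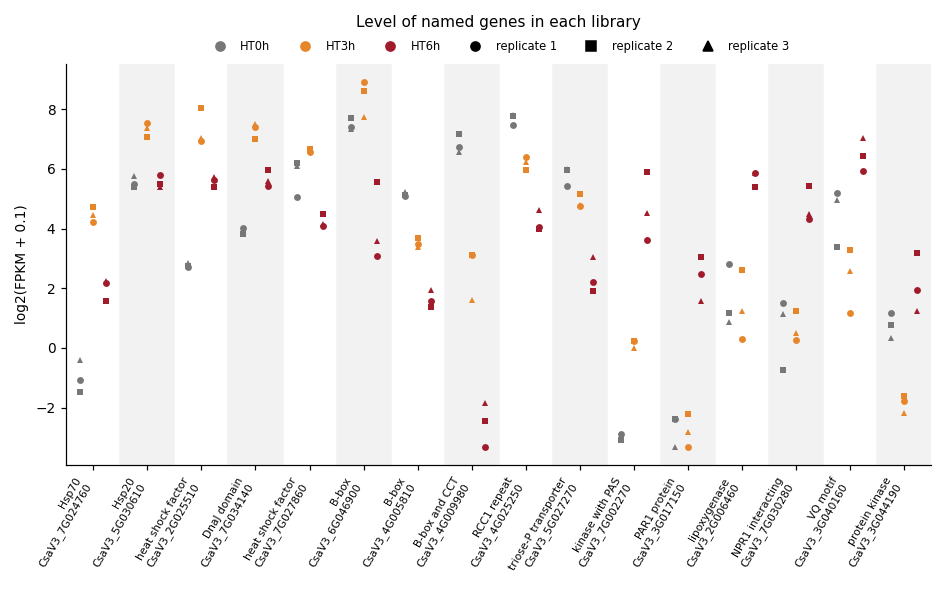
Level as log2(FPKM + 0.1) (y axis) of 16 named genes (x axis) in each of the 9 libraries, colour for the time point and marker shape for the replicate number. The heat shock genes on the left peak at 3 h, the B-box and CCT gene CsaV3_4G009980 drops at both steps, and genes on the right such as the lipoxygenase are highest in the 3 HT6h libraries.

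The largest falls among described genes included those of factors with B-box or CCT motifs, families known in Arabidopsis for roles in light signalling, flowering time and the circadian clock. CsaV3_4G009980 (chr4:7751656-7755202), with both motifs, went from 107, 143 and 95.5 FPKM in HT0h to 8.55, 8.59 and 2.93 in HT3h and to 0, 0.0846 and 0.178 in HT6h. The 3 HT3h libraries held 648 fragments of it and the 3 HT6h libraries 9, a ratio of 74.1 per unit of depth (exact 95% interval 38.8 to 163, for counting error only). Its log2 fold change was -5.14 ± 0.48 (SE; adjusted p = 0.0121), and it was called in 19 of the 22 alternatives and in all single omissions except that of HT3h_1 (adjusted p = 0.0675). In the 7 libraries the change was -4.94 (adjusted p = 0.0498).

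A second B-box gene, CsaV3_6G046900 (chr6:27677337-27679797), fell late. It overlaps by 390 bases a gene on the opposite strand, CsaV3_6G046890, which was not called. Its values were 170, 210 and 162 FPKM in HT0h, 483, 387 and 213 in HT3h and 8.28, 47 and 11.9 in HT6h, which gave a log2 fold change of -4.34 ± 0.57 (SE; adjusted p = 0.0284). The HT3h libraries were above the HT0h libraries but differed among themselves, and that first change was not called (adjusted p = 0.242). Only the omission of HT3h_3 or HT6h_2 kept the call among the 9 single omissions (adjusted p up to 0.107), and the 7 libraries also kept it (adjusted p = 0.0173). Another B-box gene, CsaV3_4G005810 (chr4:3819528-3822914), named after its values were seen, fell in both steps, from 33.6, 35.1 and 36.9 to 11.1, 12.6 and 10.3 and to 2.85, 2.49 and 3.78 FPKM, with little spread within any group. Its log2 fold change was -1.88 ± 0.18 (SE; adjusted p = 0.0121), with 0.0371 in the 7 libraries and 0.0731 at most without HT3h_1 or HT6h_1. Of 28 genes with a B-box or CCT motif, 3 were lower and none higher, against 0.2% of all genes tested that were lower. In 7 (25%) all HT6h libraries lay below all HT3h libraries, against 5.61% of all genes tested, and the median of the 28 was -0.19. The most abundant member, CsaV3_4G024430, was at 540, 669 and 413 FPKM at 3 h and at 394, 565 and 433 at 6 h and overlapped (adjusted p = 0.902).

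Without HT3h_3 and HT6h_3, 7 of the 9 genes that fell further and 5 of the 11 that fell late remained called, among them CsaV3_4G009980 (adjusted p = 0.00587) and CsaV3_4G005810 (0.0195) but not CsaV3_6G046900 (0.0951).

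Among the other genes that fell further, CsaV3_6G008360 (chr6:6710104-6724832), with a Myb-like DNA-binding domain, went from 176, 209 and 184 FPKM to 8.49, 13.3 and 5.72 and to 0.67, 1.65 and 1.06, so that its mean was 168 times lower at 6 h than at 0 h. It overlaps by 501 bases a gene on the same strand, CsaV3_6G008370, which averaged 0.875 FPKM. Between 3 h and 6 h the log2 fold change was -2.92 ± 0.35 (SE; adjusted p = 0.0202). The 7 libraries kept the call (adjusted p = 0.0196), and the omission of HT0h_1, HT3h_1, HT6h_1 or HT6h_3 ended it (adjusted p up to 0.0861). CsaV3_4G025250 (chr4:14836268-14840042), a protein with RCC1 repeats, the fold first known from a regulator of nuclear transport, was at 178, 221 and 224, then 83.9, 62.3 and 75.7, then 16.5, 15.8 and 24.7 FPKM. Its log2 fold change of -1.97 ± 0.21 (SE; adjusted p = 0.0134) was lost without HT3h_1 or HT6h_1 (adjusted p up to 0.0861). CsaV3_3G021990, a Sigma-70 factor, of the kind that directs the bacterial-type RNA polymerase of plastids, fell from 12.7, 10.6 and 6.06 FPKM at 3 h to 2.15, 1.95 and 2.72 at 6 h (adjusted p = 0.0298, and 0.0998 in the 7 libraries). A hydrophobic seed protein gene, CsaV3_6G009190, fell from 23.6, 12.1 and 10.3 to 1.85, 4.55 and 1.92 FPKM (adjusted p = 0.0384, and 0.0429 in the 7 libraries). The last of these kept its call without HT3h_3 or HT6h_2 only, and the Sigma-70 factor without HT3h_3 only, among the single omissions, with an adjusted p of up to 0.139.

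Among genes that fell late, CsaV3_5G027270 (chr5:22240296-22248184) encodes a member of the triose-phosphate transporter family, whose founding members exchange sugar phosphates across the plastid envelope. It was at 43.3, 61.9 and 63.4 FPKM in HT0h, at 26.8, 35.6 and 27.3 in HT3h and at 4.48, 3.68 and 8.16 in HT6h. The log2 fold change between the heated groups was -2.51 ± 0.29 (SE; adjusted p = 0.0191), against 0.0539 in the 7 libraries and up to 0.1 without HT3h_1 or HT6h_1. One core histone gene, CsaV3_1G014150, fell from 24.6, 18.3 and 14.9 to 5.73, 5.82 and 8.28 FPKM (adjusted p = 0.0317, 0.106 in the 7 libraries, and up to 0.126 without any single library other than HT3h_3). An undescribed gene, CsaV3_5G036640, named after its values were seen, was called in 20 of the 22 alternatives, and went from 111, 132 and 125 to 82.4, 96.6 and 66.8 and to 19.8, 21.6 and 17 FPKM (log2 fold change -2.06 ± 0.17, SE; adjusted p = 0.00669, and 0.0523 without HT3h_1).

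The described genes that started late, 10 of 14, included a lipoxygenase, a UDP-glycosyltransferase, an oxygenase, an NPR1-interacting and a VQ motif gene. In all 14 every HT6h library was above every HT0h library. Of the 14, 1 remained called without HT3h_3 and HT6h_3 (CsaV3_3G017150, adjusted p = 0.0454) and 2 in the 7 libraries, and the adjusted p without a single library reached 0.192. The largest rise was that of CsaV3_3G017150 (chr3:12833581-12835061), a PAR1 protein, a family first described in tobacco. It was at 0.0926, 0.0923 and 0 FPKM in HT0h and 0, 0.117 and 0.0408 in HT3h, which is 4 fragments over the 3 libraries, and at 5.52, 8.18 and 2.84 in HT6h, which is 419 fragments. Their ratio per unit of depth was 102 (exact 95% interval 39.5 to 375), and the log2 fold change was 5.15 ± 0.53 (SE; adjusted p = 0.0134). The adjusted p was 0.0491 in the 7 libraries, and without HT3h_1 or HT6h_1 it reached 0.0861.

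Lipoxygenases add oxygen to polyunsaturated fatty acids, a first step towards jasmonates and leaf volatiles. CsaV3_2G006460 (chr2:3078063-3084948) was at 6.88, 2.14 and 1.72 FPKM in HT0h and 1.14, 5.97 and 2.26 in HT3h, and rose to 58.2, 41.9 and 58.2 in HT6h. Its mean was 16.9 times higher at 6 h than at 3 h, with a log2 fold change of 4.32 ± 0.62 (SE; adjusted p = 0.0317). In the 7 libraries the adjusted p was 0.0498, and only without HT0h_1 or HT3h_2 did the call survive a single omission (adjusted p up to 0.127). It was the 1 called member of 14 tested lipoxygenases, against 0.175% of all genes tested that were higher. The most abundant, CsaV3_2G006390, varied among replicates more than among times, with 11.1, 119 and 63.9 FPKM at 3 h and 161, 3.05 and 236 at 6 h (adjusted p = 0.992). Of 13 TIFY genes, the family that holds the jasmonate repressors, none was called and the median was 0.35. In 3 of the 13 all HT6h libraries lay above all HT3h libraries, as in 5.9% of all genes tested.

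CsaV3_7G030280 (chr7:19163415-19164384) carries the NPR1-interacting domain, known in Arabidopsis from small proteins that bind NPR1, a receptor-complex protein of salicylic acid signalling. It was at 2.71, 0.496 and 2.1 FPKM in HT0h, at 1.09, 2.27 and 1.32 in HT3h and at 20.1, 42.9 and 22.3 in HT6h (log2 fold change 4.08 ± 0.58, SE; adjusted p = 0.0317). The UDP-glycosyltransferase CsaV3_6G001040, of the enzymes that attach sugars to hormones and secondary metabolites, rose from 0, 0.289 and 0.263 to 2.58, 13.9 and 3.8 FPKM (28 and 1067 fragments, ratio 37, exact 95% interval 25.5 to 56; adjusted p = 0.0435). CsaV3_3G012270, a 2-oxoglutarate and iron dependent oxygenase, rose from 0.762, 2 and 0.84 to 9.37, 12.7 and 19.4 FPKM (adjusted p = 0.0317). These 3 genes were not called in the 7 libraries, where the adjusted p was 0.0779, 0.0803 and 0.0539. The glycosyltransferase lost its call without any single library, whereas calls were kept by the NPR1-interacting gene only without HT0h_2 or HT3h_2, and the oxygenase only without HT0h_3 or HT3h_2, with an adjusted p of up to 0.151 over the 3 genes. Of 71 UDP-glycosyltransferases tested 1 was higher, and 2 of 72 oxygenases of the 2-oxoglutarate type, against 0.175% of all genes tested. All HT6h libraries lay above all HT3h libraries in 10 (14.1%) of the glycosyltransferases and 11 (15.3%) of the oxygenases, against 5.9% of all genes tested. The medians were 0.36 and 0.32.

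The 8 genes that had fallen by 3 h and recovered had undone between 80.6% and 190% of their log2 fall by 6 h. Some reversal is fixed by the definition of the class, and both steps share the HT3h libraries. In 5 of the 8 genes every HT6h library was above every HT0h library. Without HT3h_3 and HT6h_3 none of the 8 remained called by limma (adjusted p between 0.0524 and 0.15), and 1 did in the 7 libraries. That gene, the protein kinase CsaV3_3G044190 (chr3:36048558-36052159), was at 2.14, 1.6 and 1.17 FPKM in HT0h, at 0.189, 0.225 and 0.118 in HT3h and at 3.74, 9.02 and 2.28 in HT6h. The 9 fragments at 3 h and 267 at 6 h gave a ratio of 28.8 (exact 95% interval 15 to 63.7), and the log2 fold change was 4 ± 0.49 (SE; adjusted p = 0.0228). Without HT0h_1, HT0h_2, HT3h_1 or HT6h_1 the call was lost, with an adjusted p of up to 0.105, and the 7 libraries gave 0.0498.

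VQ motif proteins are small nuclear proteins, several of which bind WRKY factors in Arabidopsis. CsaV3_3G040160 (chr3:32965687-32965989) was at 36.7, 10.4 and 31.1 FPKM in HT0h, at 2.16, 9.66 and 5.93 in HT3h and at 60.5, 85.7 and 131 in HT6h. The log2 fold change was 4.11 ± 0.61 (SE; adjusted p = 0.0346), and that was 0.0677 in the 7 libraries and up to 0.107 without a single library, where only the omission of HT0h_2 or HT3h_2 kept the call. An undescribed gene 520 bases away on the other strand, CsaV3_3G040170, also rose, from 0.317, 0.283 and 0.297 to 3.77, 11.4 and 28.1 FPKM. A second VQ gene, CsaV3_4G029660, rose late from 0.641, 0.597 and 0.366 to 5.85, 5.5 and 3.43 FPKM (adjusted p = 0.0401, and 0.133 in the 7 libraries), and kept its call without HT0h_2 only. Of 23 VQ genes tested 2 were higher and none lower, against 0.175% of all genes tested that were higher. In 6 (26.1%) all HT6h libraries lay above all HT3h libraries, against 5.9% of all genes tested. The VQ list was added after its values had been seen. The other named genes that recovered were an oxygenase of the 2-oxoglutarate type, CsaV3_5G001480, with 0.671, 0.257 and 0.0899 FPKM at 3 h and 4.27, 7.81 and 4.4 at 6 h (adjusted p = 0.0317, and 0.117 in the 7 libraries), and a BTB and TAZ domain gene, CsaV3_1G005240, with 1.33, 1.69 and 2.7 and then 9.2, 5.86 and 10.2 FPKM (adjusted p = 0.0391, and 0.0753 in the 7 libraries). Both kept their call without HT3h_3 only.

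Among the 7 genes outside the WRKY family that kept rising, CsaV3_7G002270 (chr7:1788691-1799558), a protein kinase with a PAS sensor domain, rose most. It was at 0.0337, 0.0168 and 0.0173 FPKM in HT0h, at 1.08, 1.06 and 0.905 in HT3h and at 12.2, 58.9 and 22.6 in HT6h. The mean was 44.9 times higher at 3 h than at 0 h and 30.8 times higher again at 6 h, with a log2 fold change of 4.52 ± 0.5 (SE; adjusted p = 0.0174) for the second step. HT6h_2 was the highest of its group, and in the 7 libraries without it the change was 3.94 (adjusted p = 0.0371). Without HT3h_1 or HT6h_3 the adjusted p reached 0.0825. Without HT3h_3 and HT6h_3 its adjusted p was 0.0923, and none of the genes that kept rising remained called (0.0597 to 0.179).

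The other described genes that kept rising were hydrolases and a transporter. CsaV3_6G035820, an alpha/beta hydrolase fold protein, went from at most 0.0247 FPKM in HT0h to 0.977, 2.7 and 1.26 in HT3h and to 12.1, 18.4 and 8.56 in HT6h (log2 fold change 2.96 ± 0.43, SE; adjusted p = 0.0339, and 0.0498 in the 7 libraries). CsaV3_1G030830, of another alpha/beta hydrolase family, overlaps by 3435 bases a gene on the opposite strand, CsaV3_1G030820, which was not called. It went from 5.03, 4.21 and 3.66 to 17.7, 15.2 and 15.3 and to 50, 53.8 and 36.3 FPKM (1.52 ± 0.19, SE; adjusted p = 0.0245, and 0.0753 in the 7 libraries). The transmembrane amino acid transporter CsaV3_3G041450 went from 6.07, 4.04 and 7.21 to 15.1, 14.4 and 8.66 and to 43.3, 94.2 and 64.3 FPKM (2.36 ± 0.34, SE; adjusted p = 0.0317, and 0.0779 in the 7 libraries). In all 3 genes neither step overlapped between groups. Leaving out HT3h_1 or HT6h_1 ended each of these calls, as did further single omissions, with an adjusted p of up to 0.128. No single omission kept the call of the transporter, and only that of HT3h_2 kept the call of CsaV3_6G035820.

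The families were also ranked by the median change of their members, over the 375 descriptions with 10 or more genes tested. The lowest medians were those of chlorophyll a/b binding proteins (-1.39), Hsp70 (-0.74), Hsp20 (-0.49), B-box (-0.45) and Chromo domain (-0.41) genes. The highest were those of aromatic amino acid lyases (0.99), calmodulin binding protein-like genes (0.94), aspartic acid proteinase inhibitors (0.78), the domain associated at the C terminus with AAA (0.74) and VQ motif genes (0.63). The quartiles of all genes tested were -0.21 and 0.25. No gene was called among the lyases, the calmodulin binding, the proteinase inhibitor, the AAA-associated, the chlorophyll a/b binding or the Chromo domain genes, so these medians are a description only.

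**Figure D5:**
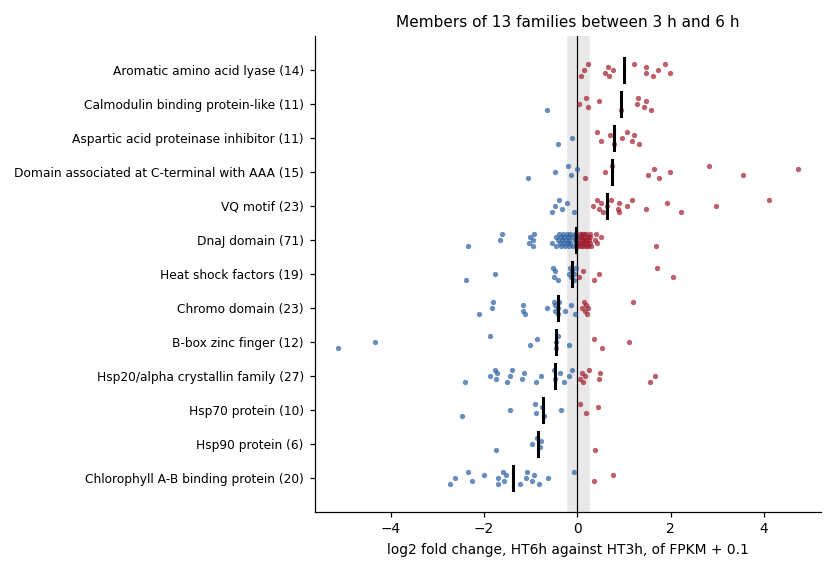
Log2 fold change between HT6h and HT3h (x axis) of each tested member of 13 families (y axis, number of members in parentheses; blue below 0, red above 0), with a black bar at the family median and a grey band between the quartiles of all genes tested. The chlorophyll a/b binding median lies at -1.39 and that of aromatic amino acid lyases at 0.99, and the DnaJ median at -0.03 lies within the grey band.

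Aromatic amino acid lyases, among them phenylalanine ammonia-lyase at the entry to lignin and flavonoid synthesis, were above 0 in 14 of 14 members, and 1 member had all HT6h libraries above all HT3h libraries, where 5.9% of all genes tested did. That member was also the most abundant, CsaV3_1G040750, at 8.82, 9.33 and 9.43 FPKM at 3 h and at 10.1, 12.1 and 10.1 at 6 h (adjusted p = 0.818). Most of the 14 members averaged under 1 FPKM over the libraries. Among them CsaV3_4G002310, named after its values were seen, was at 0, 0.678 and 0.0169 FPKM at 3 h and at 2.15, 0.171 and 0.213 at 6 h. The summed FPKM of the family was 26.4, 40.9 and 46.4 at 0 h, 14.5, 21.7 and 14.6 at 3 h and 36.2, 24.6 and 19.5 at 6 h. The heated groups overlapped, and so did those of 0 h and 6 h. Calmodulin binding protein-like genes, whose Arabidopsis relatives include regulators of salicylic acid synthesis, were above 0 in 10 of 11 members. In 4 of the 11 all HT6h libraries were above all HT3h libraries. For the AAA-associated domain, found in ATPases, it was 6 of 15, and CsaV3_6G046640, named after its values were seen, went from 0.149, 2.46 and 0.74 to 17.4, 56.2 and 10.2 FPKM without passing the test (adjusted p = 0.0594).

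Chromo domains bind methylated histone tails and also occur in retroelement genes. Of the 23 Chromo domain genes tested, 3 had all HT6h libraries below all HT3h libraries, as did 5.61% of all genes tested. All 3 were listed at 0 in the HT0h libraries. The most abundant of them, CsaV3_UNG167280, named after its values were seen, was at 57.6, 173 and 104 FPKM at 3 h and at 35.2, 34.2 and 19.2 at 6 h (log2 fold change -1.83 ± 0.39, SE; adjusted p = 0.112). The most abundant gene of the family, CsaV3_7G001450, was at 388, 362 and 231 FPKM at 3 h and at 265, 265 and 172 at 6 h, and overlapped (adjusted p = 0.68).

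Markers of leaf cell types were followed across the same libraries. Chlorophyll a/b binding proteins, which mark mesophyll and hold the light-harvesting pigments, had a summed FPKM of 57600, 64800 and 59100 in HT0h, of 66900, 53000 and 22800 in HT3h and of 19500, 24200 and 10600 in HT6h. Of the 20 genes 18 were below 0 and none was called. In 8 (40%) all HT6h libraries lay below all HT3h libraries, against 5.61% of all genes tested. The sum of HT3h_3 lay below that of HT6h_2. The most abundant, CsaV3_6G051530, was at 9950, 6240 and 3140 FPKM at 3 h and at 1480, 1620 and 625 at 6 h (log2 fold change -2.34, adjusted p = 0.42). The Rubisco small subunit gene, another mesophyll marker, was at 21300, 17900 and 6680 FPKM at 3 h and 18000, 24400 and 10500 at 6 h. Replicate 3 was the lowest of its group for both markers at both times. The part of these shifts in the falls of the called genes was not tested.

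For phloem, 1 of 33 tested genes of phloem proteins was higher at 6 h than at 3 h, against 0.175% of all genes tested. That gene, CsaV3_1G046410, named after its values were seen, had 6 fragments over the HT3h libraries and 96 over the HT6h libraries. It was not called in the 7 libraries (adjusted p = 0.136), and among the single omissions only that of HT3h_3 kept its call. The summed FPKM of the phloem proteins was 467, 520 and 298 at 3 h and 783, 565 and 485 at 6 h, with overlap. Core histones, which mark dividing cells, summed to between 8340 and 9030 FPKM in HT0h, 1720 and 1900 in HT3h and 1670 and 1720 in HT6h. Of 23 histone genes 15 were lower at 3 h than at 0 h, against 9.57% of all genes tested. Between 3 h and 6 h, 1 of the 23 was lower, against 0.2% of all genes tested. Among 31 cyclins and 50 kinesins none was called between the heated groups. The median of the histones was -0.05 and its sign turned in 5 of the 22 alternatives.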

How the data were processed

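RNA-seq was done on 9 leaf libraries of cucumber, 3 per time point. The authors deposited FPKM values per gene, which were made from fragment counts and gene length. The submitters' processing notes name CASAVA 1.8, HISAT2 2.0.5, StringTie 1.3.3b and featureCounts 1.5.0-p3, without their roles. FPKM times gene length gave whole fragments in every library (within 0.02, for genes under 2000 fragments). The depth in the values was not the total of fragments on genes. It was between 0.912 (HT3h_1) and 1.15 (HT6h_3) times that total, and how it was set was not tested. Positions and gene names are those of the deposited tables. Of the 24880 genes listed, 563 are gene models outside the CsaV3 set, among them that at chr1:19544323-19547088. Between 18972139 and 22942239 fragments per library fell on genes.

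From these values, log2(FPKM + 0.1) of genes with a mean of 0.1 or more was fitted with limma 3.58.1 (R 4.3.3) over all 9 libraries, with time point as the only term, a trended prior and 6 residual degrees of freedom. Adjusted p is Benjamini-Hochberg over 19468 genes. A gene was called at 0.05 or less and a log2 fold change of 1 or more in size. A gene fell back, rose further, fell further or recovered if it was also called at 3 h against 0 h. Late genes were not, with a log2 fold change under 1 in size at 3 h, but were called at 6 h against 0 h. The script was tested on simulated data. Intervals of fragment ratios are exact and cover counting error only.

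Named genes were described, outside the WRKY family, with a mean of 1 FPKM or more, called and without overlap of the heated libraries. They were the 5 largest changes of each class, the 3 largest rises and falls, and in each family described up to 2 called genes per direction and the most abundant one. Others, among them neighbours of named genes and the remaining Hsp20 and VQ genes, were named after their values were seen. The members and lists were chosen with earlier results of these data known. Alternatives were other pseudocounts, filters, scalings, weights and libraries, a replicate block, and voom on the recovered fragments. Reference annotation did not match the gene identifiers and was not used.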

Additional observations from a re-analysis of the deposited data

How the results depend on the processing

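The number of called genes depended on the libraries and on the variance model more than the direction of single genes did. The 73 called genes kept their sign in each alternative that tested them (70 of them were tested at a mean of 1 FPKM or more), which the absence of overlap between the groups largely fixes. Counts are given as higher and lower genes, against 34 and 39, then as the classes rose further, late rise, recovered, fell back, fell further and late fall, against 10, 14, 8, 15, 9 and 11. The 7 libraries gave 17 and 22, with 6, 8, 2, 6, 6 and 9. Array weights gave 346 and 200, with 67, 163, 72, 62, 26 and 75. A pseudocount of 1 gave 56 and 47, with 16, 30, 8, 20, 10 and 11, and one of 0.01 gave 18 and 36, with 5, 6, 7, 13, 9 and 10. Without the filter on low values the counts were 3 and 9, with 0, 2, 1, 3, 4 and 2, and without the trend 15 and 14, with 6, 5, 3, 4, 5 and 4. Quantile normalization gave 26 and 31, with 10, 8, 8, 8, 10 and 9. Scaling per counted fragment gave 44 and 32, with 13, 19, 9, 11, 9 and 11, and limma voom on the fragments gave 35 and 39, with 15, 12, 4, 15, 8 and 11, and 55 of the 73 genes among them. A mean of 1 FPKM or more gave 30 and 40. Without HT3h_3 and HT6h_3, an alternative chosen after seeing the data, the counts were 2 and 16, with 0, 1, 1, 0, 8 and 8. The 6 heated libraries alone gave 0 higher and 1 lower gene by limma, with 1244 genes at an unadjusted p under 0.05. The cause of these differences was not tested.

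Leaving out 1 library gave between 0 and 41 higher and between 2 and 47 lower genes. The classes ranged over 0 to 10, 0 to 20, 0 to 10, 0 to 13, 1 to 9 and 0 to 22 in the order above.

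With the replicate number as a block, 12 genes were higher and 27 lower, with 8, 2, 2, 11, 7 and 8 in the classes, and 34 of the 73 genes were among them. The deviations of same-numbered HT3h and HT6h libraries correlated at 0.026, 0.377 and 0.567 for replicates 1, 2 and 3. Between HT3h_2 and HT6h_3 the value was -0.472, and between HT3h_3 and HT6h_2 it was -0.444. HT3h_1 correlated more with HT6h_2 (0.081) than with its own number. The labels do not say whether the numbers mark pairs, and these values do not settle it. The main fit has no block.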

Other observations

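Some families that the report does not describe, picked with their values known, had members on one side of which few or none passed the test. Of 342 pentatricopeptide repeat genes, which process organelle RNA, 31 (9.06%) had all HT6h libraries above all HT3h libraries and 3 had them all below, with no called gene. For RNA recognition motif genes, which bind RNA in splicing and export, it was 3 above and 20 (11.1%) below of 180. Of these 180, 1 was called lower, against 0.2% of all genes tested. Of 39 glutathione S-transferases, which conjugate toxic compounds, 9 (23.1%) lay above and 2 below, and of 33 NB-ARC genes, the core of plant immune receptors, 6 (18.2%) lay above and 1 below. Over all genes tested, 5.9% lay above and 5.61% below.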
